A study of Homo sapiens with 7 samples.

Results

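The 9 genes compared belong to nonsense-mediated mRNA decay (NMD) and the exon junction complex: UPF1, UPF2, UPF3A, UPF3B, SMG1, SMG5, SMG6, RBM8A and MAGOH. They were chosen by symbol, and all isoform rows carrying the gene's Ensembl ID were summed. The 8 genes described here held 229 of the 386982 isoforms listed; UPF1 was not analysed here. Of these 8, 5 had a mean of at least 5 TPM (a gene's reads relative to all reads of its library, not divided by transcript length) over the 7 libraries, and UPF3A, SMG1 and SMG6 lay below.

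HUES66 is an established line of human embryonic stem cells, and full-length polyadenylated RNA was read on the PacBio Revio system. Cas13d, an RNA-guided nuclease that cuts RNA, was directed at isoforms of RBFOX2, which encodes a splicing regulator. There were 7 libraries: 1 control, which the labels call WT, and 6 labelled as RBFOX2 isoform knockdowns, G3 (RBFOX2 id 178147), G5 (178149), G11 (178136), G12 (178135), G13 (178145) and G14 (178146). All 7 shared the entry piggyBac, a transposon system for inserting genes, and all received 1 µg/ml doxycycline, with 24 h as the time point. Whether the control carried Cas13d or a guide is not given in the labels. Each group had 1 library, so no difference below has a replicate check, no p-value is given, and every interval covers counting error only.

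NMD removes mRNAs whose translation stops too early, and also sets the level of many normal mRNAs. The exon junction complex, which holds the RBM8A (Y14) and MAGOH proteins, is left upstream of splice junctions; UPF3A or UPF3B binds to it and joins it to UPF2 and the helicase UPF1. SMG1 phosphorylates UPF1, which then recruits SMG6, an endonuclease, and SMG5, which helps to start decay of the mRNA. Several of these mRNAs are known to be NMD substrates themselves.

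UPF3A, UPF3B and MAGOH had pairs of annotated isoforms that differ by 1 whole internal exon, and these exons are shown because they separate the isoforms whose shares are given below; whether other isoforms of these genes hold them was not examined. Exon numbers and coordinates are those of GENCODE 29 on GRCh38, and all 3 exons are multiples of 3 nt long, so that skipping keeps the reading frame. UPF3A exon 4 (chr13:114286302-114286400, plus strand, 99 nt) is in ENST00000375299 and absent from ENST00000351487. UPF3B exon 8 (chrX:119840646-119840684, minus strand, 39 nt) is in ENST00000276201 and absent from ENST00000345865. MAGOH exon 3 (chr1:53233542-53233652, minus strand, 111 nt) is in ENST00000371470 and absent from ENST00000371466. The isoforms counted below as ENST00000375299.8, ENST00000276201.7 and ENST00000371470.8 are listed in GENCODE 29 with another version. Their exon content was taken from that version.
UPF3A exon 4: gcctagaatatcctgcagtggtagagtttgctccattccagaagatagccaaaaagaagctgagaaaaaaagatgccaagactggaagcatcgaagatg
UPF3B exon 8: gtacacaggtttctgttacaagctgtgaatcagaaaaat
MAGOH exon 3: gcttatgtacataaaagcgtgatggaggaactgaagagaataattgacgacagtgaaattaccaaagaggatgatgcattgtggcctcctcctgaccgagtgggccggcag

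Library totals were 16801851 (control) to 26678535 reads (G12). The targeted gene RBFOX2 had 107 TPM in the control library, and its G-library values spanned 42.1 TPM (G3) to 106 TPM (G14). Of 10 embryonic stem cell markers, 9 were analysed and each exceeded 1 TPM in every library (summed level 1588 to 2007 TPM). Single markers differed in both directions: POU5F1 had 915 TPM in the control and 377 (G14) to 588 TPM (G3) in the G libraries, NANOG 10.0 against 3.49 to 5.54 TPM, and L1TD1 18.2 against 24.9 to 41.0 TPM. DNMT3B had 44.3 TPM in the control, 68.0 in G3, 48.4 in G5 and 13.4 (G13) to 28.4 TPM (G11) in G11 to G14. LIN28A had 170 TPM in the control, 179 in G3, 182 in G5 and 73.2 (G13) to 138 TPM (G11) in G11 to G14. Whether these differences bear on the decay factors was not tested. The 5 analysed markers of other lineages summed to at most 0.417 TPM, the value of the control. Only isoforms with at least 1 control read were listed, so markers read in the G libraries alone would not be seen. The median log2 ratio to the control over the 7877 genes with a mean of at least 5 TPM was 0.12 for G3, 0.14 for G5, -0.04 for G11, -0.16 for G12, -0.21 for G13 and -0.10 for G14.

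The mRNAs of UPF3A, UPF3B and SMG5 were high in G3 and low in G11, G12, G13 and G14, with spans of 15.4 to 30.8-fold between the highest and the lowest library. MAGOH lay below the control in each of the 6 G libraries, at 39.4% to 61.3% of it. RBM8A was at 61.7% in G3 and 88.9% to 97.1% elsewhere, UPF2 ranged from 71.3% to 139%, and SMG1 and SMG6 had at most 30 reads per library. Only isoforms with at least 1 control read were listed, so G reads of other isoforms are missing from these totals. Counting a log2 ratio of TPM + 0.5 of at least 1 in either direction as 2-fold, 15 of the 48 values of 8 genes in 6 libraries were 2-fold lower than the control (31.3%) and 2 were 2-fold higher (4.17%). Over all genes with a mean of at least 5 TPM, 11.3% of values were 2-fold lower and 1.45% higher; over every gene with reads the shares were 11.6% and 1.15%. The 48 values are not independent, since all share the single control and 8 of the 15 come from UPF3A and UPF3B. In such bulk RNA, fewer cells of a type and less RNA per cell cannot be told apart.

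By library, G3 had UPF3A and UPF3B 2-fold higher, where 1.89% of genes were so, and MAGOH 2-fold lower, where 5.14% were. G5 had MAGOH 2-fold lower (10.1% of genes). G11 had UPF3A and UPF3B lower (10.4%), and G12 these and SMG5 (8.79%). G13 had UPF3A, UPF3B, SMG5 and SMG6 lower (14.6%), and G14 UPF3A, UPF3B, SMG5 and MAGOH (18.9%). No listed gene was 2-fold higher in G5, G11, G12, G13 or G14, where 0.533%, 0.724%, 0.546%, 1.04% and 3.97% of genes were. The median log2 ratio of the 8 genes was 0.50 for G3, -0.19 for G5, -0.59 for G11, -0.74 for G12, -0.95 for G13 and -0.92 for G14.

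**Figure D1:**
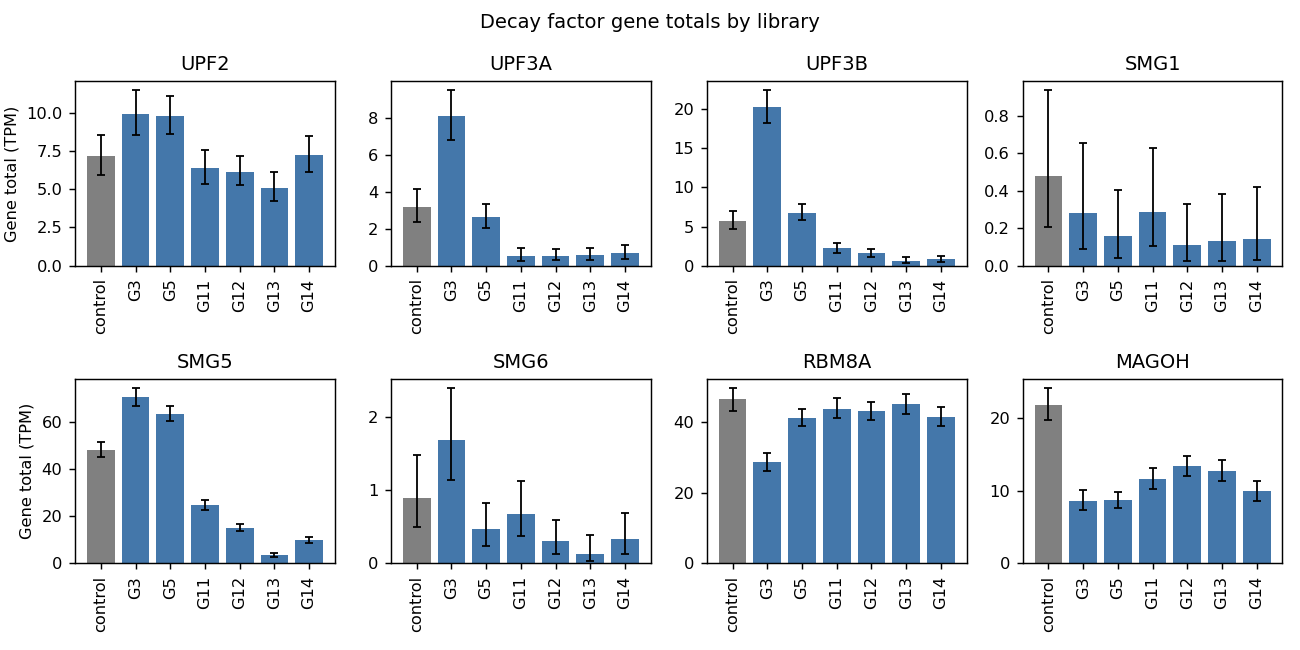
Gene total in TPM (y axis, a separate scale per gene, starting at 0) for 8 decay factors in the control (grey) and the 6 G libraries (blue), 1 library each; error bars are exact 95% Poisson intervals of the read count. UPF3A, UPF3B and SMG5 are highest in G3 and lowest among G11 to G14, whereas MAGOH is highest in the control.

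**Figure D2:**
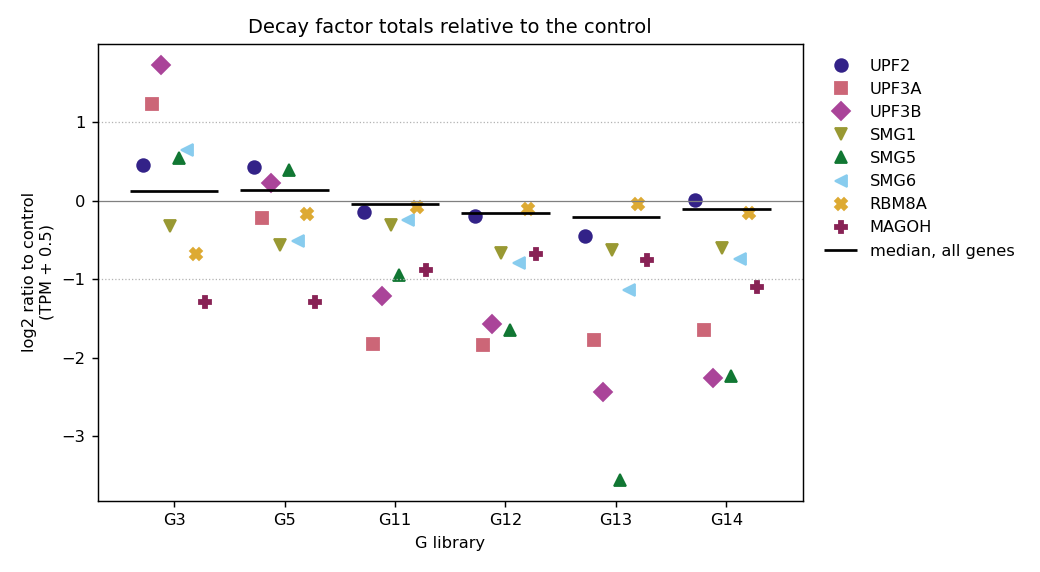
Log2 ratio of each gene total to the control (TPM + 0.5, y axis) in each G library (x axis, offset by gene for legibility); black lines are the median of 7877 genes and dotted lines mark 2-fold. UPF3A and UPF3B lie above the upper dotted line in G3 and below the lower one in G11 to G14, and SMG5 in G13 is the lowest point at -3.56.

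UPF2, the adaptor between UPF1 and the UPF3 proteins, lies on the minus strand of chromosome 10 (11920022 to 12043170). The control had 7.14 TPM (120 reads), G3 9.92, G5 9.78, G11 6.38, G12 6.15, G13 5.09 and G14 7.21. G3 and G5 were the highest libraries, at 139% (95% interval 110 to 177) and 137% (110 to 172) of the control. G13 was the lowest, at 71.3% (54.7 to 92.8), and the intervals of G11, G12 and G14 all included 100%. The isoform ENST00000357604.10 held 77.6% (G13) to 88.7% (G11) of UPF2 reads against 82.5% in the control, with overlapping intervals.

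UPF3A, on the plus strand of chromosome 13 (114281584 to 114305817), encodes the weaker NMD activator of the UPF3 pair. The control had 3.15 TPM (53 reads), G3 8.07 (144), G5 2.63 (67), G11 0.528 (11), G12 0.525 (14), G13 0.570 (13) and G14 0.668 (14). G3 stood highest at 256% of the control (185 to 357), and G5 at 83.5% could not be told from the control at this depth (57.3 to 122). The other 4 libraries formed a low group at 16.6% to 21.2%, each with an upper limit of at most 38.7%.

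The intervals of the 4 low libraries overlapped. ENST00000375299.8, with exon 4, was the leading UPF3A isoform and held 60.4% of reads in the control (46.9 to 72.4) and 73.6% in G3 (65.9 to 80.1). ENST00000351487.5, without exon 4, held 17.0% in the control (9.20 to 29.2), 18.8% in G3 and 34.3% in G5 (24.1 to 46.3). In G11 both had 5 of 11 reads, and the interval of 21.3% to 72.0% shows how little a share says at that depth. Both isoforms were above the control in G3, ENST00000375299.8 at 312% (208 to 479) and ENST00000351487.5 at 282% (129 to 683).

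UPF3B, on the minus strand of chromosome X (119805311 to 119852998), encodes the main UPF3 protein of NMD. The control had 5.77 TPM (97 reads), G3 20.3 (362), G5 6.80 (173), G11 2.21 (46), G12 1.61 (43), G13 0.658 (15) and G14 0.812 (17). In G3 it was at 351% of the control (280 to 444), a ratio higher than that of 99.8% of the 7877 genes. G5 was at 118% (91.3 to 153), with the control inside its interval.

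G11 and G12 were at 38.2% (26.3 to 54.9) and 27.9% (19.0 to 40.4) of the control. G13 and G14 were the lowest, at 11.4% (6.14 to 19.7) and 14.1% (7.87 to 23.7). Neighbours in this order (G11 with G12, G12 with G14, G14 with G13) had overlapping intervals, as did G12 with G13, and UPF3B was 30.8-fold higher in G3 than in G13 (18.4 to 55.6). ENST00000345865.6, without exon 8, held 82.4% (G14) to 93.5% (G11) of UPF3B reads against 86.6% in the control.

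ENST00000276201.7, with UPF3B exon 8, held 7.22% of reads in the control (3.54 to 14.1) and 11.3% in G3 (8.46 to 15.0). It had 0 of 17 reads in G14, where a count of 0 allows up to 3 reads, or 0.143 TPM. Both UPF3B isoforms followed the total: in G3 the form without exon 8 was at 340% of the control (266 to 438) and the form with it at 551% (245 to 1457).

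SMG1, the kinase of UPF1, has a very long mRNA and lies on the minus strand of chromosome 16 (18804853 to 18926454). It had only 3 to 8 reads per library, from 0.112 TPM in G12 to 0.476 TPM in the control. No G library could be separated from the control except G12, whose 3 reads gave 23.6% with an upper limit of 98.4%. All of its 3 isoforms carried hashed IDs and no reference ID. Hashed isoform 1 had 2 of the 8 control reads and 2 to 5 reads in each G library, and hashed isoform 2 had 4 in the control and 0 to 2 elsewhere. The SMG1 pseudogene SMG1P1 had 4 reads in the control, 10 in G3 and 0 to 2 in the others, and how reads that fit both were assigned is not given in the sources used here.

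SMG5, which binds phosphorylated UPF1 and links it to mRNA decay and to UPF1 dephosphorylation, lies on the minus strand of chromosome 1 (156249224 to 156282825). The control had 48.3 TPM (811 reads), G3 70.7 (1262), G5 63.5 (1616), G11 24.9 (518), G12 15.0 (401), G13 3.64 (83) and G14 9.84 (206). G3 and G5 stood above the control and G11 to G14 below it. G3 was at 147% of the control (134 to 160) and G5 at 132% (121 to 143).

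SMG5 in G11 was at 51.5% of the control (46.0 to 57.6), in G12 at 31.1% (27.6 to 35.1), in G14 at 20.4% (17.4 to 23.8) and in G13 at 7.54% (5.94 to 9.46). The log2 ratio of -3.56 in G13 was lower than that of all but 0.698% of genes, and that of -2.24 in G14 lower than all but 1.65%. Between G3 and G13 the span was 19.4-fold (15.5 to 24.6). The reference isoform ENST00000361813.5 followed the total: it held 76.9% of SMG5 reads in the control and 77.1% (G13) to 85.7% (G3) in the G libraries, and it was at 7.56% of the control in G13 (5.75 to 9.79).

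Of the 71 SMG5 isoforms, 35 had reads in the control only, which lowers the control's share of the leading isoform. The SMG5 transcript is long and rich in GC (4559 nt and 57.6% GC, percentiles 83.8 and 78.6 of the genes compared). With the trend of ratios on length and GC content removed, SMG5 was at -2.29 in G13, -1.63 in G14, -0.94 in G12, -0.59 in G11, 0.16 in G5 and 0.018 in G3 on the log2 scale. The 4 low libraries were still below the control, G12 no longer 2-fold, and G3 was close to the control.

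SMG6, the endonuclease that cuts NMD targets near the stop codon, lies on the minus strand of chromosome 17 (2059839 to 2303771). The control had 0.893 TPM (15 reads), G3 1.68 (30), G5 0.471 (12), G11 0.672 (14), G12 0.30 (8), G13 0.132 (3) and G14 0.334 (7). Only G12, G13 and G14 had intervals below the control, with upper limits of 84.4%, 52.1% and 97.5%. With length and GC trends removed, the log2 ratio in G13 went from -1.14 to 0.13, and those of the other 5 libraries lay between -0.77 and 0.12. The length and GC content used were those of the 1 reference isoform, which had 0 reads in G11, G12, G13 and G14.

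The 3 SMG6 isoforms differed in their 5′ ends. ENST00000263073.11, whose 5′ end at 2303783 is near that of the annotated gene, had 6 reads in the control, 18 in G3 and 6 in G5, and 0 in G11, G12, G13 and G14, where a count of 0 allows up to 0.144, 0.112, 0.132 and 0.143 TPM against 0.357 TPM in the control. Hashed isoform 1, whose 5′ end lies inside the gene at 2236638, had 7 reads in the control and 3 to 9 in every G library. Hashed isoform 2, with its 5′ end at 2244719, had 2 reads in the control, 4, 2 and 5 in G3, G5 and G11, and 0 in the other three. All SMG6 reads of G12, G13 and G14 thus came from the form with the innermost 5′ end, on 8, 3 and 7 reads. For single libraries the upper limits of the long form were 53.5% to 68.5% of the control.

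RBM8A (Y14), which binds MAGOH in the core of the exon junction complex, lies on the minus strand of chromosome 1 (145917714 to 145927678). The control had 46.3 TPM (778 reads), G3 28.6 (510), G5 41.2 (1048), G11 43.7 (911), G12 43.0 (1147), G13 45.0 (1025) and G14 41.4 (867). G3 was the lowest, at 61.7% of the control (55.1 to 69.1). The other 5 libraries were at 88.9% to 97.1%, and the intervals of G11, G12 and G13 included 100%. These values depended on which isoforms were summed, in G3 and in the other 5 libraries. With all isoforms, the log2 ratio was -0.69 in G3 and -0.17 (G5) to -0.04 (G13) in the others. With isoforms of a mean of at least 1 TPM, it was -0.45 in G3 and 0.05 (G5) to 0.25 (G13) in the others. With reference-ID isoforms only, it was 0.18 in G3 and -0.02 (G12) to 0.52 (G5) in the others. With isoforms read in every library, it was -0.48 in G3 and 0.03 (G5) to 0.16 (G13) in the others. That setting was added after seeing the data. Of the 122 RBM8A isoforms, 44 had reads in the control only, and isoforms without a control read were not listed. Both can lower the G totals relative to the control. In G3 the log2 ratio was -0.91 with the length and GC trend removed.

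Isoform usage was compared by the total variation distance to the control, which is 0 for equal isoform shares and 1 when no isoform is shared. A distance of at least 0.2 was reached in 21 of 48 values, and in 6 of the 30 values of the genes with a mean of at least 5 TPM. Over all genes with such a mean and more than 1 isoform, 11.8% of values reached it. RBM8A had 122 isoforms, of which 44 had reads in the control only. The control share of these 44 adds to the distance in every G library. Of the 21 values, 6 were those of RBM8A in the 6 G libraries (0.222 to 0.312), where the median gene was at 0.062 to 0.077. The other 15 belonged to UPF3A (4), SMG1 (6) and SMG6 (5), which had few reads, and UPF2, UPF3B, SMG5 and MAGOH had none. With only isoforms of a mean of at least 1 TPM, 1 value remained, that of RBM8A in G3 at 0.234, and the other 5 RBM8A values were 0.118 to 0.194. No value over all genes is given here for that filter. That filter left a single isoform of UPF3A, whose distance is then 0 in any case, and no isoform of SMG1 or SMG6. The 15 values of these genes could thus not be assessed with it.

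The RBM8A isoforms ended at 3 main places. On the minus strand the 3′ ends lay at 145922214 (proximal), 145921568 (middle, 646 nt further) and 145920414 (distal, another 1154 nt further); isoforms within 20 nt of these were summed, and the grouping was chosen after the values were seen. The distal share of RBM8A reads was 13.1% for the control (10.9 to 15.7), 6.08% for G3 (4.31 to 8.50) and 16.2% for G5 (14.1 to 18.6). It was 22.5% for G11 (19.9 to 25.3), 25.7% for G12 (23.3 to 28.3), 23.4% for G13 (20.9 to 26.1) and 24.5% for G14 (21.7 to 27.4). G3 was thus the lowest library, the control and G5 overlapped, and G11 to G14 formed a high group.

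In reads per library total, the distal-end form of RBM8A was at 28.6% of the control in G3 (18.5 to 43.1) and at 162% to 182% in G11 to G14. A single hashed isoform (145920414 to 145927476) held 100 of the 102 distal reads in the control and all 31 in G3. The proximal end held 24.4% in the control (21.5 to 27.6), 20.6% for G3, 11.5% for G5 (9.66 to 13.5), 15.6% for G11, 18.7% for G12, 21.7% for G13 and 14.3% for G14 (12.1 to 16.8). It was therefore lowest in G5. The middle end held 53.1% in the control and from 47.7% in G12 to 66.9% in G3.

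RBM8A in G3 was below the control at all 3 ends, the proximal at 52.0% (40.6 to 66.4) and the middle at 77.7% (67.1 to 89.9), while ENST00000583313.7, which uses the middle end, was at 118% (97.0 to 144). That isoform held 23.7% of RBM8A reads in the control (20.8 to 26.8) and 45.3% in G3 (41.0 to 49.6). GENCODE 29 places GNRHR2 on the opposite strand of this locus, and whether reads were assigned by strand is not given in the sources used here. A gene on the same strand within the locus had 5 to 16 reads per library.

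**Figure D3:**
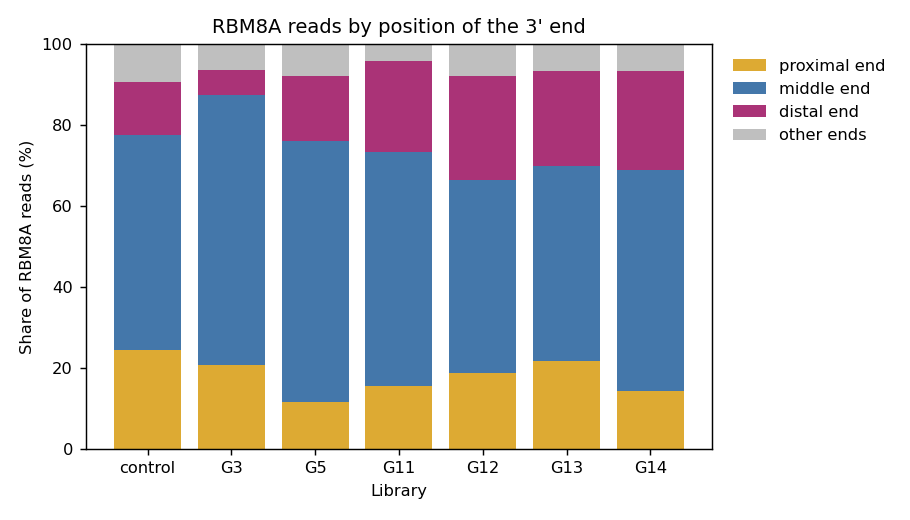
Share of RBM8A reads in percent (y axis) by 3′ end class in each library (x axis), as stacked bars that sum to 100. The distal end holds 6.08% of reads in G3, 13.1% in the control and 22.5% to 25.7% in G11 to G14.

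MAGOH, the partner of RBM8A, lies on the minus strand of chromosome 1 (53226892 to 53238610). The control had 21.9 TPM (368 reads), G3 8.63 (154), G5 8.68 (221), G11 11.7 (243), G12 13.4 (358), G13 12.8 (291) and G14 9.98 (209). All 6 G libraries were below the control with upper limits of at most 71.1%, and 20.5% of genes were lower in all 6. The lowest were G3 at 39.4% (32.4 to 47.7) and G5 at 39.6% (33.4 to 47.0), whose intervals overlapped, and the highest was G12 at 61.3% (52.8 to 71.1).

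Its isoform use was steady: ENST00000371470.8, with exon 3, held 91.6% (G3) to 95.5% (G13) of MAGOH reads, and 91.6% in the control. The form without exon 3, ENST00000371466.4, held 7.88% in the control (5.54 to 11.1) and 3.44% in G13 (1.88 to 6.21). The MAGOH transcript is short, at 740 nt (percentile 1.59 of the genes compared), among the shortest measured. Without the length and GC trend, MAGOH log2 ratios were -0.45 for G3, -0.26 for G5, -0.05 for G11, -0.22 for G12, -0.33 for G13 and 0.017 for G14, so that none was 2-fold.

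MAGOHB, a near-identical copy of MAGOH on another chromosome, had 83.3 TPM in the control library. Its G values were G3 44.0, G5 42.5, G11 53.2, G12 74.0, G13 74.7 and G14 47.6 TPM, all below the control and lowest in G3, G5 and G14, as for MAGOH. How reads that match both copies were assigned is not given in the sources used here, so the split between them is uncertain.

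**Figure D4:**
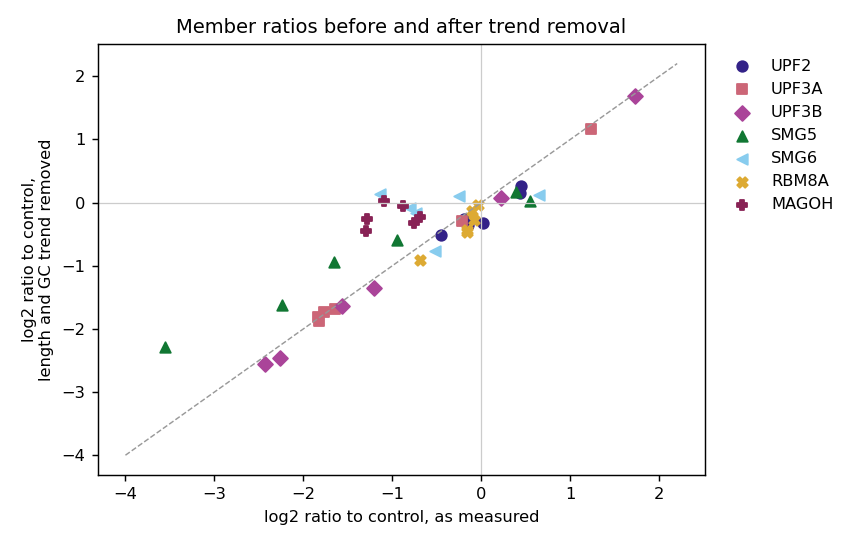
Log2 ratio to the control as measured (x axis) and with the length and GC trend removed (y axis), 6 points per gene for 7 genes (SMG1 had no reference isoform); the dashed line marks equal values. UPF3A and UPF3B lie close to the line, SMG5 lies above it at the low end (-3.56 to -2.29 in G13) and MAGOH moves up towards 0.

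The root mean square difference between the 6 log2 ratios of UPF3A and UPF3B was 0.53, and UPF3B differed from SMG5 by 0.68 and from UPF2 by 1.52. Pairs with smaller ratios were as close, with SMG1 at 0.45 from RBM8A and 0.46 from SMG6. All ratios share the 1 control. Among 6619 genes with a mean of at least 10 TPM, the 2 closest to each gene were named as a description. For SMG5 these were ZC3H3 (0.15) and PIGQ (0.18), and 11 genes lay within 0.3. For UPF3B they were TTLL12 (0.36) and ZFP36L2 (0.36), and for UPF3A PRKD2 (0.36) and TYSND1 (0.36), with no gene within 0.3 of either. UPF3A had 11 to 144 reads per library, and its pattern carries that counting error.

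The closest genes to MAGOH were ATP6V1F (0.10) and UQCR10 (0.12), with 282 genes within 0.3, and those to RBM8A were PIBF1 (0.097) and SUB1 (0.13), with 365. UPF2 was closest to PFKFB4 (0.065) and WDR55 (0.074), and 1351 genes lay within 0.3. The low-count genes were closest to AS3MT (0.12) and SPRYD4 (0.13) for SMG1 and to ASB13 (0.22) and LPAR2 (0.23) for SMG6. Higher levels in G3 and G5 with lower levels in all of G11 to G14, the pattern of UPF3B and SMG5, were found in 13.2% of the 7877 genes.

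Other genes of the pathway did not share a direction. Of 10 other decay factors, all above 5 TPM on average, at most 1 was 2-fold higher and 1 lower in G3, G5, G11 and G12, with 2 lower in G13, and 2 higher and 2 lower in G14; their medians ran from -0.33 (G13) to 0.37 (G5). NBAS, a factor with roles in NMD and in Golgi transport, had 31.5 TPM (control), with G3 21.6, G5 11.98, G11 10.5, G12 16.8, G13 10.9 and G14 7.21, 2-fold lower in 4 libraries. For 7.62% of genes the level was 2-fold lower in at least 4 libraries.

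Of 13 other exon junction proteins, 12 were above 5 TPM on average, and 1 or 2 were 2-fold higher in each library and 1 lower, in G14. EIF4A3, the helicase that anchors the complex, had a median log2 ratio of 0.51 and was never 2-fold different. CWC22, which brings EIF4A3 to the spliceosome, had 31.4 TPM (control), with G3 33.6, G5 57.0, G11 64.5, G12 66.6, G13 71.8 and G14 86.6. SRRM1, a splicing coactivator, was at 36.3 TPM in the control and 67.1 (G13) to 98.3 TPM (G5) in the G libraries. ALYREF, an mRNA export adaptor, was below the filter at 4.82 TPM in the control and 0.907 (G14) to 3.29 TPM (G13) elsewhere.

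Among 15 mRNA turnover enzymes, 13 passed the same level, with medians from -0.16 (G13) to 0.19 (G5). At most 2 were 2-fold higher and 2 lower in any library. EDC4, a scaffold of the decapping complex, had 37.9 TPM (control), with G3 57.3, G5 37.6, G11 14.1, G12 10.6, G13 1.76 and G14 6.54. As for SMG5, G3 was highest and G13 lowest. Its median log2 ratio was -1.59, and -0.87 with the length and GC trend removed.

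Genes and transcripts known or annotated as NMD substrates were then set beside these levels. Of 13 genes with transcripts reported as NMD substrates, 9 were analysed and 8 were above 5 TPM; their median log2 ratio was below 0 in all 6 G libraries, from -0.73 in G5, where the median of all genes was 0.14, to -0.10 in G13, where it was -0.21. None was 2-fold higher, and 2 were 2-fold lower, both in G14, where 18.9% of all genes were. After removal of the length and GC trend, the medians of these 8 genes over the G libraries lay on both sides of 0, from -0.45 to 0.40. GAS5, a noncoding host gene whose spliced RNA is a known NMD substrate, had a median of -0.50, and 0.081 with the length and GC trend removed. DDIT3, below the filter, was at 5.83 TPM in the control and 1.62 (G14) to 3.67 TPM (G12) in the G libraries.

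Transcripts that GENCODE 29 classes as nonsense_mediated_decay held 0.741% of the reads of annotated transcripts in the control (0.737 to 0.746), 0.599% in G3 (0.595 to 0.603), 0.764% for G5, 0.754% for G11, 0.695% for G12, 0.699% for G13 and 0.714% for G14. G3 was at 80.8% of the control (80.1 to 81.5) and the other 5 at 93.8% to 103%. The G3 value depended on a single transcript of ACTG1, the gene of cytoplasmic gamma-actin. This transcript, ENST00000576544.6, listed in GENCODE 29 with another version, held 32.2% of the reads of the class in the control and 17.0% in G3. Without it the share was 0.504% in the control and 0.498% in G3, 98.8% of the control, and the other 5 were at 95.2% to 96.4%. Without the 3 most-read transcripts of the class, G3 was at 98.5% of the control, G5 at 94.5%, and G11 to G14 at 91.6% to 93.6%. Restricted to the 16043 transcripts matched with their version, the share was 2.33% in the control and 2.15% (G3, 92.2% of the control) to 2.31% (G14) in the G libraries. That set also leaves out the ACTG1 transcript, and G3 was still its lowest library, followed by G5 at 94.4% of the control. Transcripts without a control read were not listed, so their G reads are missing from the nonsense_mediated_decay class. How far this lowers the G shares was not tested. None of the reference-ID isoforms of the 8 decay genes was given that class. Hashed isoforms have no biotype and could not be classed. They were all 3 isoforms of SMG1, while SMG5 had 1 reference ID among 71 isoforms and RBM8A 3 among 122.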

How the data were processed

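Full-length cDNA was joined into 8-fold arrays, sequenced on the Revio system and split into single reads, per the labels' protocols. The submitters' processing notes name minimap2 2.17 and GRCh38; the isoform caller, filters and annotation are not given in the sources used here. Per the file headers, the authors deposited for each isoform and library the number of full-length reads (counts) and their TPM. Recomputing TPM as counts over the library total left differences of at most 0.0102, and the recomputed values were used. The table lists isoforms with at least 1 control read, and empty cells were read as 0. Listed isoforms held 98.1% to 98.6% of the reads of each G library.

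Isoforms were summed by Ensembl ID stem (14294 genes), and 440 joined IDs were merged with the gene they start with. Starts were printed with 1 added. Gene spans, biotypes, length and GC content came from GENCODE 29, matched by transcript ID stem for 28379 of 31693 reference IDs (16043 with the same version). Length and GC content were available for 7736 of 7877 genes. Ratios used log2(TPM + 0.5). Intervals are 95%: exact conditional (Clopper-Pearson) for ratios, Wilson for shares. The floor was 3 reads, worth 0.112 to 0.179 TPM. The trend on length and GC content was a quadratic surface fitted per library.

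Genes named are the 8 analysed; per gene, isoforms with at least 5% of reads on average; the 2 closest genes by pattern; and list genes 2-fold from the control the same way in at least 4 of 6 G libraries. EIF4A3, GAS5 and the transcript of ACTG1 were added after their values were seen. The genes and lists were chosen with earlier results of these data known. Alternatives covered pseudocount, scaling, isoform filters, reference library, threshold and trend removal. The functions were tested on simulated data. Python 3.11.15, scipy 1.17.1 and pandas 2.3.3 were used.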

Additional observations from a re-analysis of the deposited data

How the results depend on the processing

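Of 15 values 2-fold lower than the control, the count was 10 to 21 under 9 of the alternatives, but 25 at a 1.5-fold threshold and 5 with the median of the other 6 libraries as reference. That reference gave 7 values 2-fold higher in place of 2. With the interval of the read ratio wholly beyond 2-fold, 12 values were lower and 1 was higher, UPF3B in G3. With the length and GC trend removed, SMG6 in G13 was at 0.13 and MAGOH in G14 at 0.017 on the log2 scale, against -1.14 and -1.10. With reference-ID isoforms only, RBM8A was at 0.18 in G3 and 0.52 in G5, against -0.69 and -0.17. When 1 G library at a time was left out, the median log2 ratio over the rest lay between -1.65 and -0.94 for SMG5, -1.57 and -1.21 for UPF3B, -1.77 and -1.65 for UPF3A and -1.10 and -0.88 for MAGOH.

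The count of usage distances of at least 0.2 was the least stable: 21 became 1 with isoforms of a mean of at least 1 TPM and 1 with reference IDs only. It became 13 at a threshold of 0.3, 10 with the median of the other 6 libraries as reference, and 5 with isoforms read in every library, a setting added after seeing the data. The 1 TPM filter left no pair of isoforms to compare in UPF3A, SMG1 and SMG6, so their values among the 21 could not be assessed with it. Those of SMG1 and SMG6 could not be assessed with reference IDs only either, since SMG1 had 0 reference isoforms and SMG6 had 1. The median share of the nonsense_mediated_decay class over the G libraries was 95.2% of the control, 96.4% with isoforms of at least 1 TPM, 97.7% as a mean over genes, 97.3% with version matches and 96.1% without the most-read transcript, the last 2 added after seeing the data. For G3 alone, leaving out that ACTG1 transcript moved 80.8% to 98.8%, and version matches, which also leave it out, gave 92.2%. The cause of these shifts was not tested. Library totals placed the median gene lower than median-of-ratios scaling did, by -0.13 in G12, -0.16 in G13 and -0.11 in G14 (-0.046 to 0.039 elsewhere). Depth limits SMG1 and SMG6, with 3 to 30 reads per library. No paired analysis was possible because each group has 1 library, all numbered 1.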
